A study of Drosophila melanogaster with 9 samples.

Results

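The comparison described here is the first growth of a larval brain tumour of Drosophila melanogaster in adult hosts. Its members are 6 of the 9 libraries of the study: 3 of the first allograft, called T0 (replicates 2, 3 and 4), and 3 of the primary tumour (replicates 1, 2 and 4). They were taken by their labels, and all genes of the count table entered. The tumours, called DM, came from flip-out clones in which an actin driver switched on GFP together with UAS transgenes for the transcription factors dpn and E(spl)mgamma. All 9 libraries carry this overexpression, so no library without the transgenes stands beside them. The primary cells came from larvae in their last instar, 4 days after clone induction. For each primary replicate, 150 brains were dissociated with collagenase and the GFP-positive cells were sorted by flow cytometry. For T0, brains of that genotype were grafted into adult w1118 hosts and grown for 8 to 10 days, after which GFP-positive masses from 25 hosts were pooled per replicate without a sorting step. The remaining 3 libraries, of a later transplantation round, entered the fit for the estimate of the spread and are not otherwise described.

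Neuroblasts are the stem cells of the fly central nervous system. They divide asymmetrically, renewing themselves and giving off a progenitor whose daughters become neurons or glia. The bHLH-Orange repressors dpn and E(spl)mgamma act downstream of Notch and keep neuroblasts from differentiating, and their joint overexpression makes neuroblast-like cells accumulate. Transplantation into the abdomen of an adult fly is a classical test of whether larval brain tissue goes on growing outside the larva. Such a host has a circulation with blood cells, fat body, gonads and gut. Whole larval brains were grafted, so tissue outside the clones went into the hosts as well, and what was collected was chosen by GFP alone.

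Polyadenylated RNA was sequenced and counted per gene, with 11040373 to 14093032 counts in the primary libraries and 9482014 to 12988767 in T0. Levels are given as CPM (counts per 1000000 counts) after TMM scaling, in the order of primary replicates 1, 2 and 4 and then T0 replicates 2, 3 and 4. Levels of different genes are not compared, since CPM is not corrected for gene length. Differences are log2 fold changes, T0 minus primary, with their standard error (SE) from edgeR's quasi-likelihood test on 3 against 3 libraries. The threshold for a call was an adjusted p under 0.05 (Benjamini-Hochberg) across 9082 genes tested. Log2 CPM values correlated at 0.971 to 0.987 (Pearson's r across genes, which are not independent replicates) within each group. T0 replicate 2 stood apart from the other T0 libraries on the second principal component, which held 8.19% of the variance, at 39.2 against -27.1 and -14.4. Results that rest on it are given with and without it. Sorting, dissociation, the host and the time of growth all differ between the groups at once and cannot be told apart.

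Nearly 1 gene in 2 differed. Of the genes tested, 2037 were called higher in T0 (22.4%) and 2107 lower (23.2%), 45.6% in either direction, and the median difference over all of them was 0.01. Large falls outnumbered large rises: 527 genes were called at least 8-fold lower (5.8%) and 218 at least 8-fold higher (2.4%). The genes called higher took 9.8% to 10.4% of the counts in the primary libraries and 19.1% to 21.2% in T0, whereas those called lower went from 28.0% to 29.2% down to 14.2% to 17.6%. Without T0 replicate 2, 1758 genes were called higher and 1934 lower. The CPM values of the groups did not overlap in 2486 genes with T0 higher (27.4%) and in 2488 with T0 lower (27.4%). A lack of overlap, where it is given below for single genes, was therefore common. The authors' deposited table called 4164 genes, of which 4021 were called here too, with 0 in the opposite direction.

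**Figure D1:**
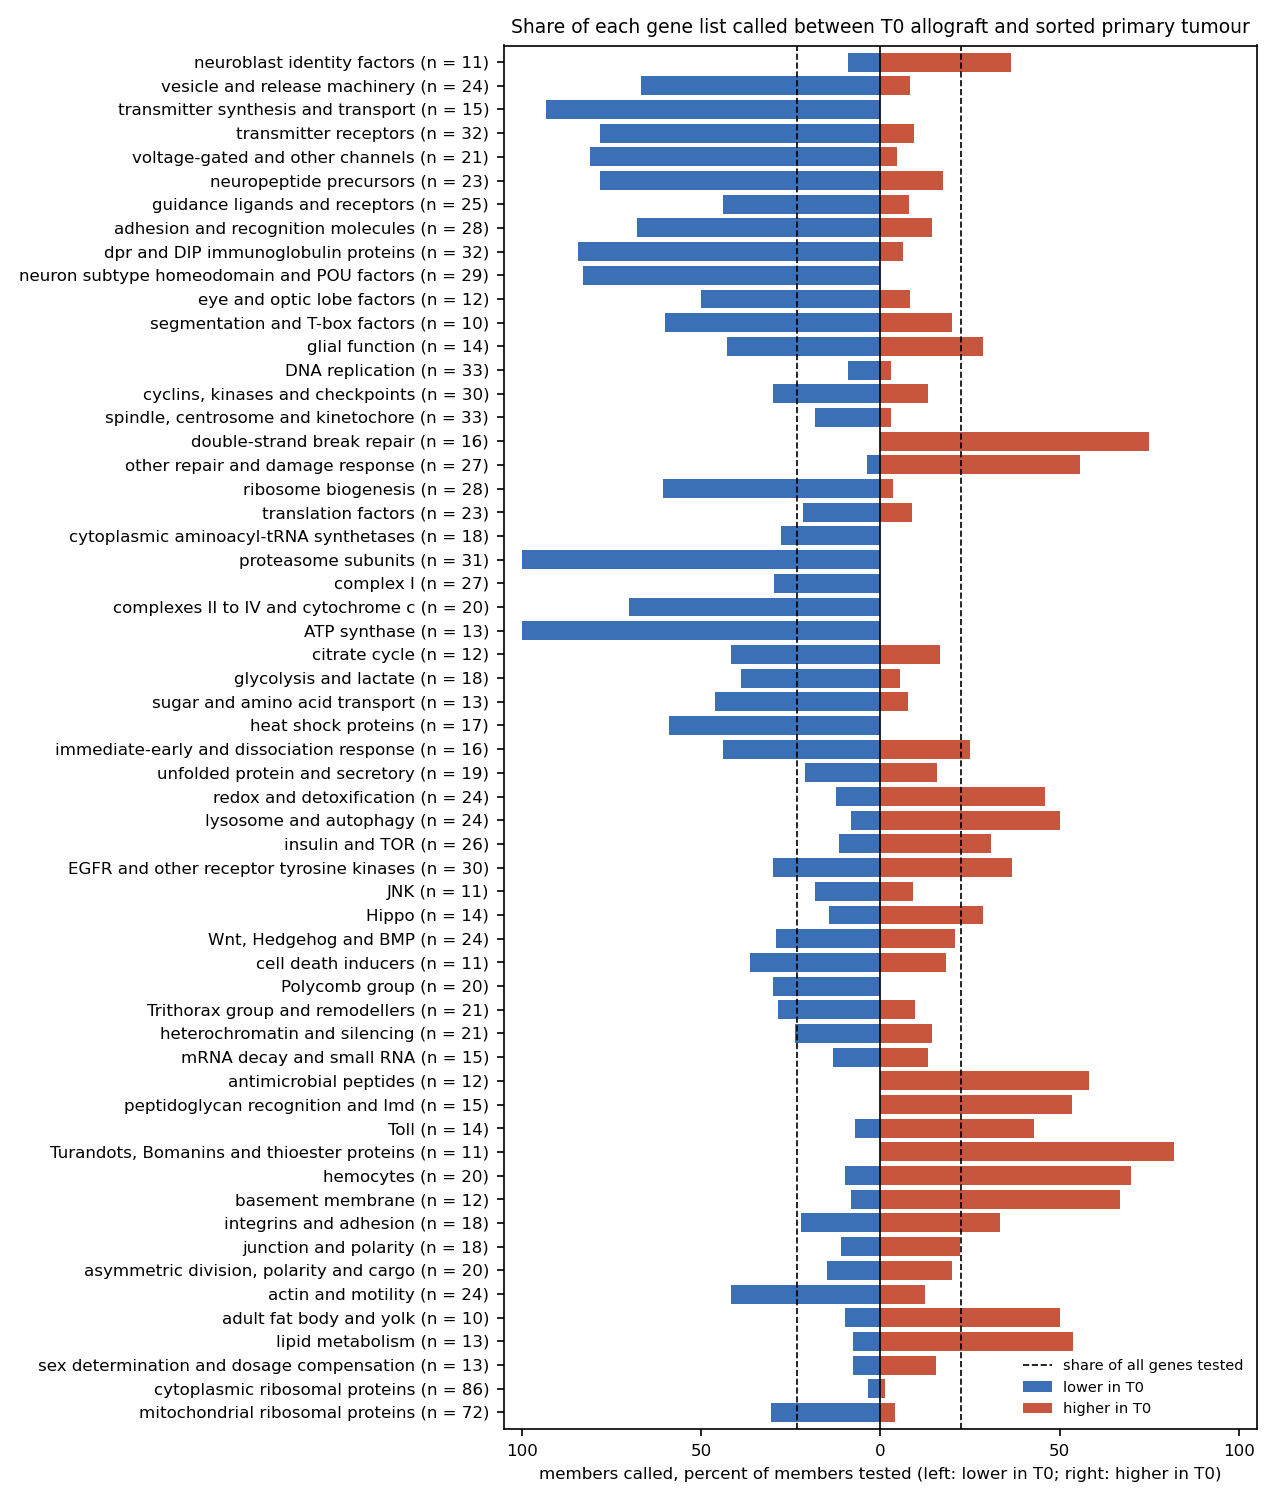
Share of the members tested of each gene list that was called lower in T0 (bars to the left) or higher (bars to the right), in percent, for the lists with at least 10 members tested. Dashed lines mark the shares among all genes tested, 23.2% lower and 22.4% higher. The proteasome and ATP synthase reach 100% on the left. On the right, the list of Turandots, Bomanins and thioester proteins reaches 81.8%, double-strand break repair 75.0% and hemocytes 70%. Of 26 Turandots, Bomanins and thioester proteins, 2 reached a mean of 1 CPM in primary cells and 11 in T0. Of 24 hemocyte genes it was 13 and 20. Members low in primary cells passed the filter on low counts through allograft libraries, so the shares of both lists are partly set by it.

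The largest falls were in genes of regional identity and of mature neurons. The gap gene hkb (huckebein), a zinc finger repressor that also marks certain embryonic neuroblast lineages, lies on chromosome 3R from 4345015 to 4346646 (dm6, as are all coordinates). Its levels were 11.4, 10.5 and 18.8 CPM in the primary libraries, and it had 0 counts in all 3 T0 libraries. Against a floor of 3 counts over the T0 group it was at least 147-fold lower in T0. Proc, which encodes the neuropeptide proctolin (chromosome 2L, 7864642 to 7871432), was at 24.2, 28.2 and 26.7 CPM in primary cells. It had 967 primary counts and 1 T0 count, a ratio of 877 with a 95% interval of 157 to 34688 that covers counting error only. The Hox gene abd-A (chromosome 3R, 16807214 to 16830049), which specifies abdominal segments, had 593 counts against 1, a ratio of 538 (96.2 to 21286). In bulk samples, fewer cells of a type and less RNA per cell cannot be told apart.

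Antp, the Hox gene of the thorax (chromosome 3R, 6896253 to 6999228), stood at 76.7, 52.6 and 53 CPM in primary cells and at 0, 0.183 and 0.294 CPM in T0, a difference of -8.33 (SE 0.42). The zinc finger gene tsh, which patterns the trunk, was at 101, 68.3 and 86.6 CPM and then at 0.226, 0.458 and 1.03 CPM, a difference of -7.08 (SE 0.39). In both genes the lowest primary library lay far above the highest T0 library, though groups without overlap were a condition for entering this set. The neuropeptide precursor Nplp1 was at 135, 155 and 135 CPM and then at 0.792, 0.549 and 0.661 CPM (-7.72, SE 0.30). The homeodomain genes oc (orthodenticle, of the anterior head and brain), Gsc (goosecoid) and HGTX (the Nkx6 homologue of motor neurons) fell by 7.49, 7.37 and 7.90 on the log2 scale. Of these, Gsc and HGTX kept 2 T0 counts each. The rest of the 15 lowest were unc80, a subunit of the neuronal sodium leak channel complex, at -7.68, igl, a calmodulin-binding protein of neurons, at -7.37, and 4 genes known by a CG number.

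The largest rises were in genes with almost no reads in the primary libraries, and most were highest in T0 replicate 2. CG16826 (chromosome 2L, 13347773 to 13349020) had no read in any primary library and was at 120.5, 122.5 and 44.2 CPM in T0, at least 1103-fold higher against the floor of 3 counts over the group. On the X chromosome, lcs (21396727 to 21397316) had no primary read and 42.2, 26.0 and 6.5 CPM in T0, at least 274-fold higher. Its near neighbour CG1678, now named whe (21402339 to 21402772), had 3 primary counts and 1389 T0 counts, a ratio of 510 (174 to 2478). These genes had reads in all 3 T0 libraries, with the lowest level in T0 replicate 4.

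Cyp4g1, the cytochrome P450 that makes cuticular hydrocarbons in oenocytes, was at 1.68, 1.77 and 2.06 CPM in primary cells and at 70.2, 57.8 and 39.6 CPM in T0 (4.92, SE 0.50). The yolk protein genes Yp1 and Yp2, which adult female fat body and ovarian follicle cells express, rose by 4.92 (SE 0.92) and 4.5 (SE 0.83). CR45601, which rose by 5.49, is an antisense RNA that overlaps Yp1, and without a stated strand setting its reads cannot be separated from those of Yp1. Phagocytic receptors of the Nimrod family were also in this set. NimC1, a marker of plasmatocytes, was at 0.292, 0.323 and 0.938 CPM and then at 26.4, 12.8 and 2.72 CPM (4.76, SE 0.78), and NimB2 rose by 5.26.

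Several of these differences rested largely on T0 replicate 2. The germline thioredoxin dhd stood at 30.7 CPM there and at 1.56 and 1.84 CPM in the other T0 libraries. Without that library its difference was 2.90, down from 5.61, and it was no longer called. The yolk receptor yl was at 27.6, 3.39 and 1.91 CPM in T0, and its difference of 5.03 became 3.00 without that library (adjusted p = 0.0729). NimC4, a receptor for apoptotic cells, was at 76.2, 6.96 and 2.21 CPM, and its difference of 4.83 became 2.20; with limma-voom its call was lost (adjusted p = 0.137). CG2233 went from 4.64 to 3.39 and CG14629 from 4.47 to 3.53 and stayed called. The call of dhd was also lost with limma-voom and without primary replicate 1, 2 or 4. That of yl was also lost with limma-voom and without primary replicate 2.

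**Figure D2:**
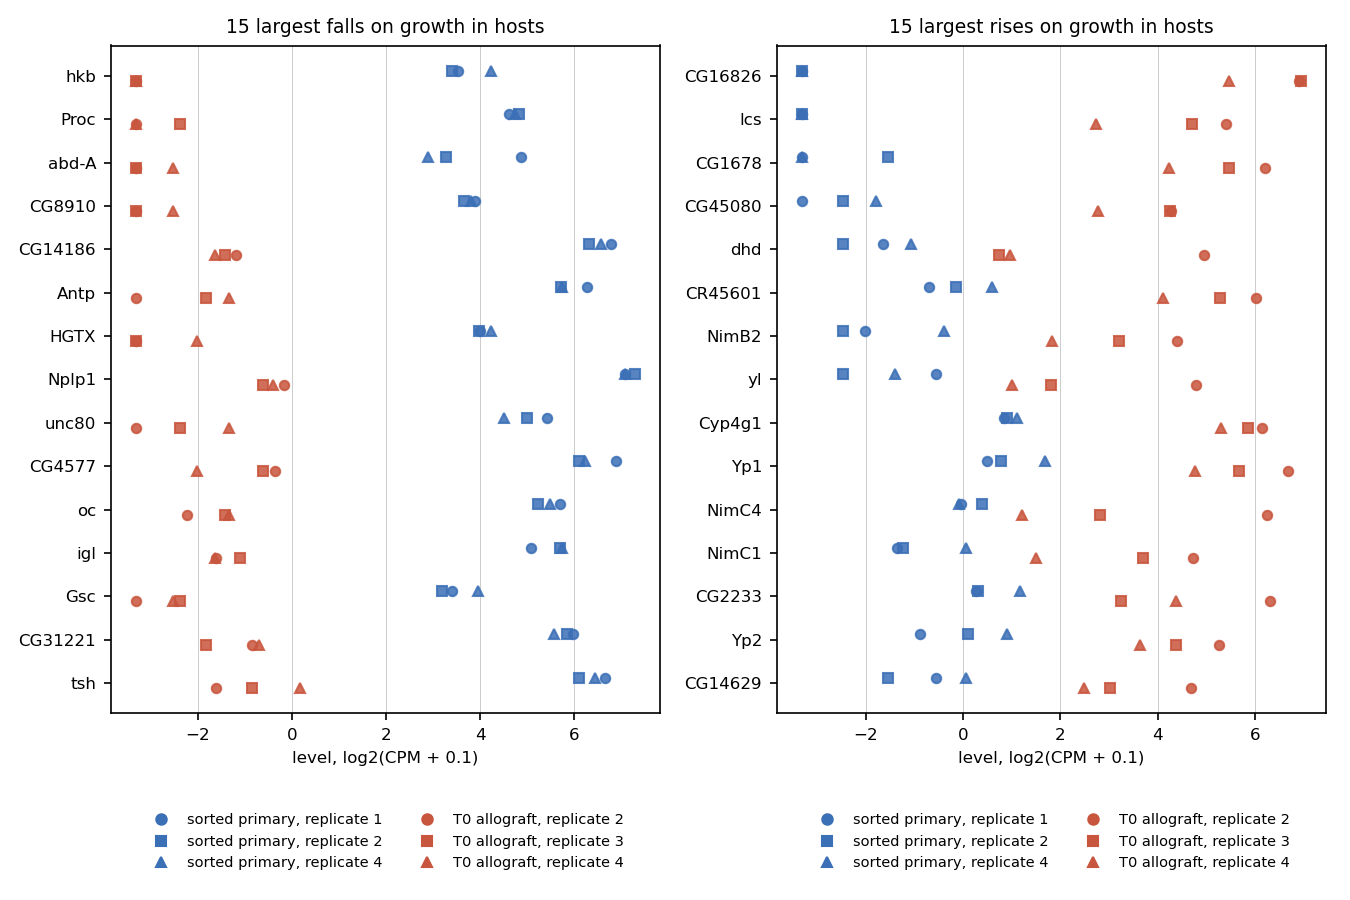
Level of the 15 genes with the lowest (left) and the 15 with the highest (right) log2 fold change, as log2(CPM + 0.1) in each library, with blue symbols for primary replicates 1, 2 and 4 and red symbols for T0 replicates 2, 3 and 4. The points at the far left of each panel are libraries with 0 counts. The T0 points lie close together in the left panel, while in the right panel T0 replicate 2 is often the highest, as for dhd at 30.7 CPM.

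The largest gains in CPM were in genes that the primary cells already expressed. Pex7, a receptor that imports enzymes into peroxisomes (chromosome 3L, 8647145 to 8651011), rose from 671, 791 and 929 CPM to 5256, 3243 and 2628 CPM, a difference of 2.22 (SE 0.26). It overlaps the arrestin gene Arr2 on the other strand, which rose by 0.87. Non1, a nucleolar GTPase of ribosome assembly, went from 864, 1110 and 856 CPM to 4096, 2782 and 2180 CPM (1.68, SE 0.23). The T0 range of both genes lay wholly above the primary range. The RNA-binding protein gene stau, whose product carries pros mRNA in dividing neuroblasts, went from 891, 674 and 529 CPM to 2128, 1399 and 1496 CPM (1.26, SE 0.22). The kinase Lk6, which phosphorylates eIF4E, rose by 1.03 and the translation inhibitor Pdcd4 by 0.95. The gene hig, which encodes a synaptic cleft protein, rose by 1.86 and by 1.26 without T0 replicate 2. The last members of this set were the noncoding RNA CR42862 (1.54), ytr (0.86), and CG16879 and CG17341, which now belong to a single gene model, CG46301, and rose by 2.34 and 2.35.

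The largest losses in CPM were in cytoskeletal, chromatin and chaperone genes. The chaperone Hsp83, the fly Hsp90, fell from 8536, 7973 and 4898 CPM to 3249, 1649 and 1848 CPM (-1.67, SE 0.32). Act5C, the main cytoplasmic actin, fell from 4241, 3877 and 4329 CPM to 1597, 1932 and 2015 CPM (-1.17, SE 0.16). Both genes had no overlap between the groups. The noncoding RNA pncr002:3R was at 4085, 2469 and 1146 CPM and then at 240, 178 and 219 CPM (-3.60, SE 0.38), with a wide spread among the primary libraries. The axonal protein fax fell from 1963, 1385 and 1350 CPM to 209, 241 and 301 CPM (-2.64, SE 0.21). Falls of 0.65 to 1.23 were measured for alphaTub84B, 14-3-3epsilon, Bacc, the high mobility group protein HmgD, the histone-binding Df31 and the replacement histone His3.3B. His3.3B fell by 0.65 and lost its call under 1 of the 14 alternative settings.

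Genes for making and loading neurotransmitters fell almost without exception. Of 15 tested, 14 were lower in T0, with a median difference of -3.97 beside 0.01 over all genes. Gad1, the enzyme that makes GABA, was at 48.2, 56.0 and 70 CPM and then at 0.453, 0.549 and 0.735 CPM (-6.58, SE 0.41). VAChT, the vesicular acetylcholine transporter, was at 49.2, 26.9 and 29.6 CPM and then at 1.81, 1.65 and 2.87 CPM (-4.04, SE 0.33). For both genes every T0 library lay below 3 CPM. The choline transporter CG7708, now named ChT, fell by 5.86 and the vesicular monoamine transporter Vmat by 6.08. The list of 6 neuron markers moved with these genes. All 6 fell (elav, nSyb, Syt1, brp, Rab3 and para), their summed level was 753 to 1297 CPM in primary cells and 142 to 207 CPM in T0, and elav, with a fall of 1.95, was the least changed. The part of neuron number in these differences was not tested.

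Most receptors for transmitters fell. Of 32 tested, 25 fell and 3 rose, with a median of -3.82, and 1 rose without T0 replicate 2 or primary replicate 2. The GABA receptor subunit Rdl was at 53.6, 41.3 and 46.0 CPM and then at 0.453, 0.0916 and 0.808 CPM (-6.60, SE 0.39), and the muscarinic receptor mAChR-A fell by 5.79. The other GABA receptor subunit Lcch3, at 36.6, 30.0 and 32.5 CPM and then 45.1, 23.8 and 24.5 CPM, was not called (-0.09, SE 0.23). Its T0 values spanned the primary range.

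The 3 receptor genes that rose were all subunits of nicotinic acetylcholine receptors, the ion channels of fast cholinergic transmission. Expression of nAChRalpha5 (chromosome 2L, 14040170 to 14094401) was 98.9, 103 and 99.8 CPM in primary cells and 366, 352 and 398 CPM in T0, a difference of 1.89 (SE 0.18, adjusted p = 7.59e-06). The groups were tight and far apart. NimC4 lies inside nAChRalpha5 on the same strand, but its T0 levels of 76.2, 6.96 and 2.21 CPM do not follow those of nAChRalpha5. The subunits nAChRalpha3 and nAChRbeta2 rose by 1.05 and 1.12, mainly in T0 replicate 2, and without it they differed by 0.59 and 0.39 and were not called. All 10 nicotinic subunits were then read, a set chosen after the values of those 3 were seen. In it 6 fell and 4 rose, the added one being nAChRbeta3, at 1.17, 1.53 and 2.16 CPM and then 20.9, 8.97 and 3.97 CPM (2.80, SE 0.53, and 2.00 without T0 replicate 2). On the other strand nAChRbeta3 overlaps Ets21C, which also rose, and without a stated strand setting reads of the overlap cannot be assigned. The 6 that fell were called under all 14 alternatives, while the number called higher ranged from 2 to 4.

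**Figure D3:**
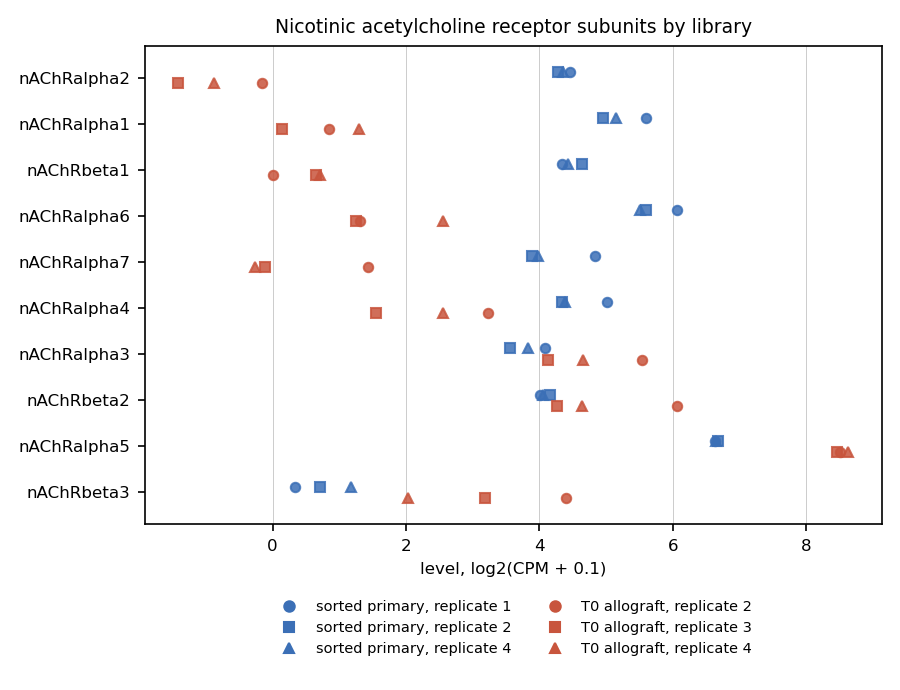
Level of the 10 nicotinic acetylcholine receptor subunits as log2(CPM + 0.1) in each library, ordered by log2 fold change, with blue symbols for primary and red for T0 replicates. The upper 6 subunits have all red points to the left of the blue ones. For nAChRalpha5 the 3 red points, at 352 to 398 CPM, lie to the right of the blue ones at 98.9 to 103 CPM, and for nAChRalpha3 and nAChRbeta2 the shift is carried by T0 replicate 2.

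Of 21 channel genes tested, 17 fell, 1 rose and 3 were not called, with a median of -3.68. The delayed rectifier potassium channel Shab was at 34.7, 23.8 and 20.6 CPM and then at 0.340, 0.183 and 0.514 CPM (-6.17, SE 0.38), and para, the voltage-gated sodium channel, fell by 3.98. The gene that rose was na, the sodium leak channel whose complex includes unc80. Its levels were 108, 70.8 and 82.9 CPM and then 125, 118 and 140 CPM (0.55, SE 0.17), and the call was lost without primary replicate 2, primary replicate 4 or T0 replicate 4. Of 24 genes of vesicle release tested, 16 fell, 2 rose and 6 were not called. The SNARE regulator cpx (complexin) fell from 135, 94.7 and 113 CPM to 6.23, 4.03 and 6.39 CPM (-4.36, SE 0.24). The presynaptic calcium channel cac rose from 119, 89.7 and 87.1 CPM to 311, 188 and 273 CPM (1.38, SE 0.20), and the priming factor unc-13 rose by 1.06, or by 0.71 without T0 replicate 2. Several noncoding RNAs overlap unc-13, and their reads may be shared with it.

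Neuropeptide precursors spanned differences from -9.33 to 4.20. The table holds 38 of them, of which 23 passed the filter on low counts. Of those, 18 fell and 4 rose, with a median of -3.46. Of the 38, 26 reached a mean of 1 CPM in primary cells and 9 did in T0. Members low in T0 could pass through the primary libraries, so the share that fell is partly set by the filter. The feeding peptide sNPF was at 15.2, 19.6 and 19.9 CPM and then at 0.453, 0.0916 and 0.221 CPM (-6.17, SE 0.51). The circadian peptide Pdf fell by 6.22 and the precursor CG8216, now named spab, by 6.61. Ptth, the brain hormone that drives ecdysone synthesis in the larva, went the other way, from 2.70, 2.18 and 4.22 CPM to 35.7, 14.9 and 17.4 CPM (2.90, SE 0.39). The lowest T0 library was above the highest primary library. ETH, the hormone that triggers ecdysis behaviour, rose from 11.7, 9.43 and 9.10 CPM to 19.6, 20.1 and 17.9 CPM (0.93, SE 0.18). Nplp2 rose by 3.65 and CG8317, now named Lst or limostatin, by 4.20, from under 0.3 CPM in each primary library to 4.30, 1.83 and 0.514 CPM. Among 7 processing enzymes tested, the convertase amon and its chaperone 7B2 fell by 5.74 and 5.52 and the amidating enzyme Pal2 by 3.49. Phm, the other amidating enzyme, was at 48.9, 50.3 and 52.0 CPM and then at 93.5, 48.6 and 56.1 CPM (0.39, SE 0.21, not called).

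Most cell surface proteins for wiring also fell. The dpr and DIP proteins are immunoglobulin receptors that pair between synaptic partners. Of 32 tested, 27 fell and 2 rose, with a median of -3.90. The DIP-binding dpr4 was at 17.7, 12.5 and 12.4 CPM and then at 0.226, 0.458 and 0.441 CPM (-5.16, SE 0.43), whereas dpr17 rose from 14.6, 11.4 and 9.94 CPM to 22.2, 16.9 and 24.2 CPM (0.81, SE 0.21). The other that rose, dpr12 (0.67), lost its call without T0 replicate 2 and without primary replicate 2 or 4. CG32791, now DIP-alpha, was not called at 0.22 (SE 0.21).

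Of 28 adhesion and recognition molecules, 19 fell and 4 rose, with a median of -1.35. Dscam2, a homophilic receptor of neurite repulsion, was at 145, 58.1 and 47.5 CPM and then at 4.53, 1.83 and 3.82 CPM (-4.63, SE 0.46). Those that rose were the junction protein Fas3 (1.38), the Toll receptors Toll-7 (1.27) and Tollo (0.88), and the EGFR inhibitor kek1 (1.17). Toll-7 went from 240, 175 and 241 CPM to 651, 433 and 506 CPM without overlap. Of 25 guidance ligands and receptors, 11 fell and 2 rose, with a median of -0.38, and 1 rose without T0 replicate 2, T0 replicate 4, primary replicate 2 or primary replicate 4. The receptor robo3 fell from 62.6, 40.7 and 40.7 CPM to 1.70, 1.19 and 1.98 CPM (-4.87, SE 0.27) and the ligand NetB (netrin B) by 3.40. Its receptors differed, with fra rising from 340, 221 and 229 CPM to 561, 413 and 385 CPM (0.78, SE 0.19) and unc-5 falling by 1.48.

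Transcription factors of position and neuron type fell nearly throughout. All 9 Hox genes and cofactors tested were lower, of 11 in the table, with a median of -5.87. The smallest falls of the 9 were in the cofactors exd and hth, at 0.48 and 0.85, while Scr, at 4.6, 3.55 and 5.72 CPM and then 0.113, 0 and 0.0735 CPM, fell by 6.03 (SE 0.69). Of 29 homeodomain and POU factors of neuron subtypes, 24 fell, with a median of -3.0. Dr, a repressor of ventral fates, was at 25.5, 22.8 and 25.8 CPM and then at 0.226, 0.458 and 0.221 CPM (-6.31, SE 0.35). The antennal and brain factor ems fell by 6.31 and the optic lobe and sensory organ factor B-H1 by 5.75. Not all did: vvl, a POU factor, was at 270, 172 and 234 CPM and then at 198, 167 and 204 CPM (-0.25, SE 0.17), and onecut at 275, 171 and 208 CPM and then at 303, 222 and 338 CPM (0.40, SE 0.23). Both had overlapping groups and were not called.

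The retinal determination genes parted from each other. The Pax6 genes toy and ey fell from 111, 79.8 and 89.5 CPM to 2.38, 5.86 and 4.48 CPM (-4.44, SE 0.33) and by 3.93. Their partner so rose by 0.75 (SE 0.19), from 32.8, 29.4 and 36.7 CPM to 47.1, 55.7 and 62.8 CPM. The phosphatase eya, a cofactor of so, was at 124, 89.3 and 114 CPM and then at 107, 153 and 147 CPM without a call (0.32, SE 0.19). Of 10 segmentation and T-box factors tested, 6 fell and 2 rose, or 1 without T0 replicate 3, primary replicate 2 or primary replicate 4. The table holds 16, with 10 at a mean of 1 CPM or more in primary cells and 5 in T0. The filter on low counts thus partly sets the share that fell. The gooseberry genes gsb and gsb-n, Pax-type homeodomain factors of segment polarity, fell by 6.31 and 6.46. The gap gene gt rose from 4.01, 2.18 and 2.3 CPM to 14.8, 6.32 and 6.32 CPM (1.68, SE 0.40).

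Neuroblast genes did not move as a block. Of 8 neuroblast markers 2 were called higher and 3 lower, and their summed level, 3832 to 4335 CPM in primary cells, was 3547 to 4563 CPM in T0, with overlapping groups. This is the marker list of the labelled tumour cell type, and all of its members had reads in both groups. Among 11 identity factors, 4 rose and 1 fell, with 2 rising without T0 replicate 3, primary replicate 2 or primary replicate 4. The transcription factor nab rose from 420, 328 and 382 CPM to 687, 843 and 668 CPM (0.96, SE 0.24), grh by 0.78 and the zinc finger gene klu by 0.64. The call of klu was lost without T0 replicate 3 or 4 and without primary replicate 2 or 4. The cargo adaptor mira differed by 0.44 (SE 0.15), and 6 of the 14 alternatives ended its call. By contrast, wor, a Snail-family factor, fell by 0.68 and the proneural gene ase by 2.31.

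Type II neuroblasts form intermediate progenitors, and 9 genes of that lineage were tested, of which 3 rose and 5 fell. The ETS factor pnt, which sets type II identity, rose from 353, 256 and 291 CPM to 514, 615 and 649 CPM (0.98, SE 0.17). The zinc finger genes Sp1 and btd, which act with it in type II neuroblasts, rose by 1.31 (SE 0.18) and 0.69 (SE 0.17). All T0 libraries of Sp1, at 549, 458 and 457 CPM, were above the primary libraries at 226, 163 and 203 CPM. The factor erm, which stops intermediate progenitors from reverting, fell by 1.05 (SE 0.26), opa by 1.99 (SE 0.28) and ham by 1.44 (SE 0.29).

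Of 6 genes of the switch to differentiation, 3 fell (pros, nerfin-1 and elav), 1 rose (Lin29, now named dati, by 0.41) and 2 were not called. The rise of Lin29 lost its call under 9 of the 14 alternatives. Transcripts of nerfin-1, a zinc finger factor that holds new neurons in their state, fell from 562, 370 and 396 CPM to 24.6, 36.1 and 42.9 CPM (-3.67, SE 0.31). In the list of cyclins, kinases and checkpoint genes, the cyclin-dependent kinase inhibitor dap, which ends proliferation, fell from 130, 93.0 and 110 CPM to 13.6, 11.3 and 18.9 CPM (-2.92, SE 0.28). No T0 library reached 1 in 3 of the lowest primary level in either gene. Of the 2 overexpressed factors themselves, dpn fell by 1.33 (SE 0.20) and E(spl)mgamma-HLH by 1.48 (SE 0.20), and the counts do not separate transgene from endogenous transcripts. The bHLH factor genes E(spl)m7-HLH and E(spl)m8-HLH fell by 3.13 and 1.94 and the Notch target Hey by 3.74.

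Of 8 genes of the ecdysone receptor and its response tested, 2 rose, 4 fell and 2 were not called. The 25% that rose was near the 22.4% of all genes, while 50% fell beside 23.2%. EcR, the hormone receptor, rose by 1.08 (SE 0.16) and the nuclear receptor ftz-f1 by 1.14 (SE 0.15). Its partner usp, at 79.2, 64.5 and 71.3 CPM and then 64.9, 71.0 and 66.0 CPM, was not called. The early response gene Eip74EF was at 31.7, 13.4 and 7.13 CPM and then at 0.340, 0.549 and 0.661 CPM (-5.01, SE 0.59), Eip75B fell by 1.17 and Hr4 by 3.94. Primary replicate 1 was the highest library for each of these 3 genes, with Hr4 at 94.0 CPM there against 13.5 and 12.5 CPM. The zinc finger gene mamo fell by 4.92.

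The proteasome fell as a whole. It is the protease that degrades ubiquitin-tagged proteins, built of a 20S core and a 19S cap. All 31 of its 31 subunits tested were lower in T0, by 0.38 to 1.09 on the log2 scale with a median of -0.67. The core subunit Prosalpha5 was at 200, 309 and 288 CPM and then at 110, 142 and 123 CPM (-1.09, SE 0.17). The cap ATPase Rpt6 was at 229, 302 and 294 CPM and then at 118, 140 and 143 CPM (-1.04, SE 0.14). The groups did not overlap in either gene, nor in the summed level of the list, which was 6704 to 8470 CPM in primary cells and 4641 to 5269 CPM in T0. Leaving out single libraries left 26 to 31 subunits called.

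**Figure D4:**
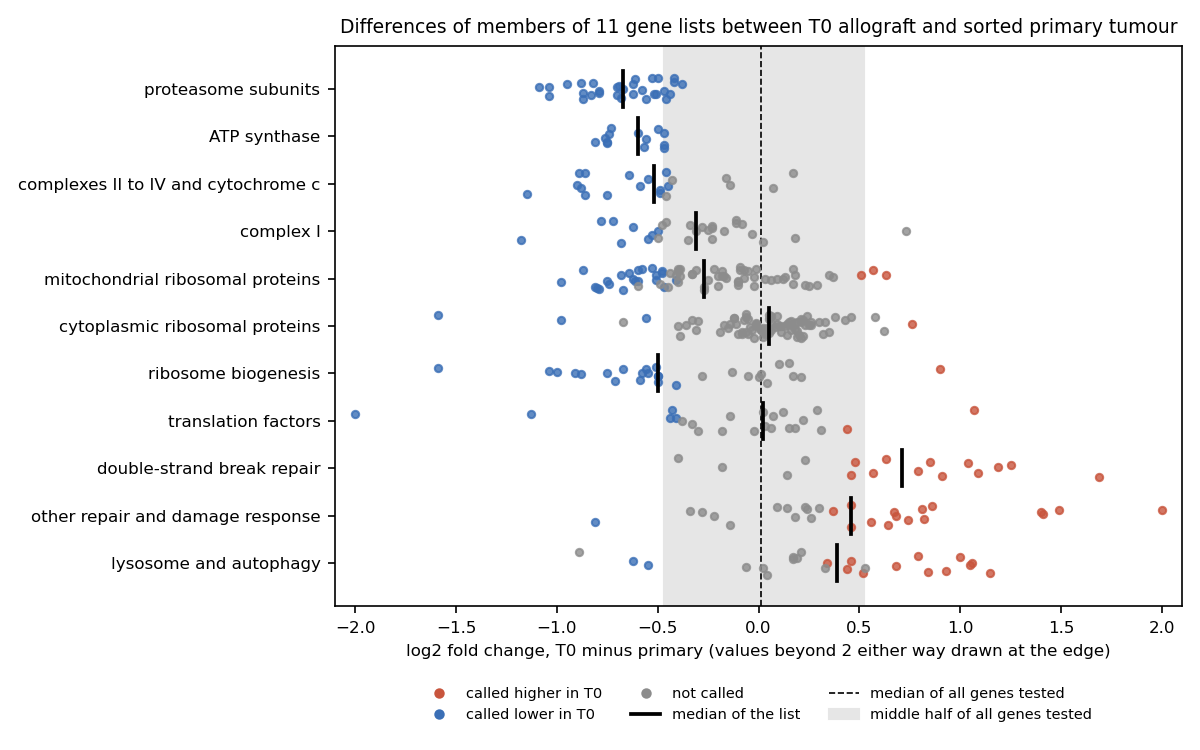
Log2 fold change, T0 minus primary, of each member tested of 11 gene lists, with members called higher in red, called lower in blue and not called in grey. Thick bars mark list medians, the dashed line marks the median of all genes tested at 0.01, and the grey band their middle range from the lower to the upper quartile. All proteasome and ATP synthase points lie left of 0, cytoplasmic ribosomal proteins centre on 0.05, and the repair lists lie mostly to the right, at medians of 0.71 and 0.46.

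Ribosomal proteins did not share that fall. Of 86 cytoplasmic ribosomal proteins tested, 1 was called higher and 3 lower, with a median of 0.05. Their summed level spread widely in T0, at 238001, 168402 and 135228 CPM, across the 136254 to 188941 CPM of the primary libraries. Of 28 genes for building ribosomes, 17 fell, with a median of -0.50. The nucleolar proteins Nopp140 and nop5 fell by 1.00 (SE 0.16) and 1.04 (SE 0.17). The one that rose was dm, the fly Myc, which drives ribosome production, from 286, 202 and 176 CPM to 393, 302 and 538 CPM (0.90, SE 0.22), while its antagonist Mnt fell by 1.59 (SE 0.26). Among translation factors, 5 of 23 fell, or 3 without primary replicate 2, and 2 rose, with a median of 0.02. The 21.7% that fell was near the 23.2% of all genes. Ef1alpha100E, an elongation factor now named eEF1alpha2, fell from 508, 404 and 427 CPM to 26.7, 9.71 and 12.1 CPM (-4.80, SE 0.33), and Thor, the 4E-BP that restrains cap-dependent translation, rose by 1.06 (SE 0.21).

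The energy lists differed in how many members fell. All 13 ATP synthase subunits were called lower, by 0.47 to 0.81, with a median of -0.60. The subunit ATPsyn-d was at 210, 281 and 286 CPM and then at 142, 175 and 153 CPM (-0.73, SE 0.18), without overlap. When 1 library was left out 4 to 12 subunits were called, with 4 left when primary replicate 4 was removed, 7 when primary replicate 2 was removed and 8 when T0 replicate 2 or 4 was. Of 20 genes of complexes II to IV, 14 fell, with 7 without T0 replicate 4 or primary replicate 4 and 8 without primary replicate 2. Of 27 genes of complex I, 8 fell, with 5 without T0 replicate 2 and 4 without T0 replicate 4, primary replicate 2 or primary replicate 4. Of 72 mitochondrial ribosomal proteins, 22 fell and 3 rose, with 7 to 9 falling without T0 replicate 2, T0 replicate 4, primary replicate 2 or primary replicate 4, 35 falling without primary replicate 1 and 5 rising without primary replicate 2. The shares that fell in complex I, 29.6%, and among mitochondrial ribosomal proteins, 30.6%, were near the 23.2% of all genes. The electron carrier Cyt-c-p fell from 150, 207 and 252 CPM to 83.5, 99.7 and 90.6 CPM (-1.15, SE 0.19) and the cytochrome oxidase subunit CG9603, now COX7A, by 0.89 (SE 0.17).

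Central carbon genes went both ways. Of 18 glycolysis genes tested, 7 fell and 1 rose, 38.9% and 5.56% beside 23.2% and 22.4% of all genes, with a median of -0.32. The mutase Pglym78 fell by 0.79 (SE 0.18), and ImpL3, the lactate dehydrogenase now named Ldh, by 3.07 (SE 0.65). In the citrate cycle, citrate synthase kdn fell by 0.66 (SE 0.14), while l(1)G0255, the fumarase now named Fum1, rose from 198, 287 and 297 CPM to 510, 484 and 435 CPM (0.87, SE 0.19) and the NADPH-producing dehydrogenase Idh by 0.72 (SE 0.14). Glut1, a glucose transporter, was at 81.1, 41.5 and 46.9 CPM and then at 7.81, 5.13 and 6.98 CPM (-3.09, SE 0.30). The amino acid carrier path fell by 1.14 (SE 0.18) and the monocarboxylate carrier Sln by 1.60 (SE 0.28), while Indy, a citrate carrier, rose by 1.38 (SE 0.17).

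Most DNA repair genes rose. Of 16 double-strand break repair genes tested, 12 were higher in T0, with a median of 0.71, and 9 to 11 were called on leaving out 1 library. All 3 members of the nuclease complex that first binds broken ends rose. Its ATPase rad50 went from 111, 123 and 127 CPM to 456, 340 and 372 CPM (1.69, SE 0.15), mre11 rose by 1.04 (SE 0.16) and nbs by 1.08 (SE 0.15). All T0 values of the 3 genes were above all primary values. The ligase of end joining, Lig4, rose by 1.25 (SE 0.18), whereas mus308, the polymerase of a back-up joining route, was at 85.5, 89.1 and 102 CPM and then at 55.1, 77.3 and 77.3 CPM (-0.40, SE 0.15, not called). Of 27 other repair and damage response genes, 15 rose and 1 fell. The helicase RecQ5 rose by 1.49 (SE 0.14) and the translesion polymerase subunit mus205 by 1.41 (SE 0.13). Thd1, a thymine DNA glycosylase, fell by 0.81 (SE 0.22), but it overlaps zfh2 on the other strand and may share reads with it.

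Few replication and spindle genes were called, beside 45.6% of all genes. Of 33 replication genes, 1 rose and 3 fell, with a median of -0.02, and of 33 spindle and kinetochore genes, 1 rose and 6 fell. On leaving out single libraries the falls ranged from 1 to 4 for replication, with 1 left without T0 replicate 2, T0 replicate 4, primary replicate 1 or primary replicate 2, and from 0 to 6 for the spindle list, with 0 without primary replicate 2 and 1 without T0 replicate 2 or primary replicate 4. Among 30 cyclins, kinases and checkpoint genes, 4 rose and 9 fell, 13.3% and 30% beside 22.4% and 23.2% of all genes. The mitotic kinase cdc2, now named Cdk1, was at 169, 222 and 197 CPM and then at 72.7, 103 and 108 CPM (-1.04, SE 0.17), and the replication licensing inhibitor geminin fell by 0.87 (SE 0.17). The checkpoint kinases tefu, the fly ATM, and mei-41, the fly ATR, rose by 0.91 (SE 0.14) and 0.85 (SE 0.21), and lok, the fly Chk2, by 0.50 (SE 0.13). For tefu the levels were 134, 112 and 112 CPM and then 235, 206 and 235 CPM, with no overlap.

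Of 20 Polycomb genes 6 fell, beside 23.2% of all genes, including ph-p by 1.12 (SE 0.25) and jing by 1.24 (SE 0.22). Of 21 Trithorax and remodelling genes, 6 fell and 2 rose, and 28.6% falling was near the 23.2% of all genes. Without T0 replicate 2 or primary replicate 1, 3 fell. The SWI/SNF scaffold mor was at 624, 529 and 561 CPM and then at 221, 368 and 313 CPM (-0.93, SE 0.18), while ash2, a subunit of histone H3K4 methyltransferases, rose from 138, 146 and 120 CPM to 260, 294 and 253 CPM (1.00, SE 0.14). The heterochromatin protein HP1b fell by 0.85 (SE 0.18). The piRNA helicase spn-E rose from 33.9, 36.1 and 36.7 CPM to 79.9, 82.8 and 83.2 CPM (1.21, SE 0.12). The small RNA factors AGO2 and drosha rose by 0.61 (SE 0.13) and 0.71 (SE 0.11), and the neuronal and muscle RNA-binding protein bru-3 fell by 4.21 (SE 0.37).

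Of 30 receptor tyrosine kinase genes tested, 11 rose and 9 fell, and without T0 replicate 2 it was 8 and 9. The shares with all libraries were 36.7% and 30%, beside 22.4% and 23.2% of all genes. The receptor Egfr went from 39.2, 29.1 and 36.4 CPM to 65.7, 80.2 and 79.7 CPM (1.11, SE 0.17). Its ligands spi and vn rose by 1.26 (SE 0.17) and 2.73 (SE 0.36), and the feedback inhibitor sty by 1.17 (SE 0.16). The protease rho, which releases EGFR ligands, was at 9.56, 6.94 and 8.44 CPM and then at 4.98, 0.916 and 2.72 CPM (-1.55, SE 0.66, not called), and 5 of the 14 alternatives called it lower. The kinase Alk, a receptor that acts in neurons with its ligand jeb, fell from 66.1, 35.3 and 45.3 CPM to 1.81, 0.824 and 2.21 CPM (-4.90, SE 0.34) and jeb from 48.8, 27.7 and 40.4 CPM to 0.792, 0.275 and 0.588 CPM (-6.14, SE 0.41). The FGF ligand ths fell by 2.60 (SE 0.47) and sev by 2.91 (SE 0.44).

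In the insulin and TOR list, 8 of 26 rose and 3 fell, 30.8% and 11.5% beside 22.4% and 23.2% of all genes. ImpL2, a secreted protein that binds insulin-like peptides, fell from 444, 232 and 198 CPM to 35.5, 26.4 and 19.7 CPM (-3.43, SE 0.52). The TOR inhibitor gig, the fly TSC2, rose by 0.78 (SE 0.12), AMPKalpha by 0.66 (SE 0.12), and melt, a modulator of insulin signalling, from 10.7, 15.1 and 20.1 CPM to 91.8, 85.2 and 80.4 CPM (2.50, SE 0.19). The TOR inhibitor scyl, which hypoxia induces, fell by 1.09 (SE 0.27). In the Wnt, Hedgehog and BMP list 5 of 24 rose and 7 fell, with 3 rising without T0 replicate 2, primary replicate 2 or primary replicate 4. The shares with all libraries, 20.8% and 29.2%, were near the 22.4% and 23.2% of all genes. The Hedgehog effector ci rose from 15.8, 14.3 and 20.2 CPM to 39.6, 31.4 and 55.5 CPM (1.33, SE 0.23) and the BMP receptor tkv by 0.95 (SE 0.15). The other BMP receptor wit, needed at motor synapses, fell from 19.9, 9.76 and 15.9 CPM to 1.13, 1.19 and 1.25 CPM (-3.66, SE 0.38), and the Wnt receptor fz by 2.06 (SE 0.36). In the Hippo list, sav and ft rose by 1.03 (SE 0.14) and 1.08 (SE 0.30).

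Stress genes did not share a direction. Of 17 heat shock proteins tested, 10 fell, with a median of -1.01. Hsp67Bc was at 77.7, 71.6 and 27.6 CPM and then at 3.85, 0.549 and 0.882 CPM (-5.16, SE 0.58). Hsp26 was at 2266, 2895 and 1109 CPM and then at 2058, 547 and 408 CPM, was not called, and differed by -1.06 with T0 replicate 2 and by -2.13 without it. Without that library 16 of the 17 were called lower, and without T0 replicate 4 or primary replicate 1 it was 6. Among immediate-early genes and genes that dissociation is known to induce, 7 of 16 fell and 4 rose. The shares were 43.8% and 25%, beside 23.2% and 22.4% of all genes, so the share that rose was near that of all genes. The early growth response factor sr was at 30.1, 23.9 and 24.4 CPM and then at 0.226, 0.275 and 0.294 CPM (-6.55, SE 0.39), while the growth arrest gene Gadd45 rose by 2.37 (SE 0.48), Ets21C by 1.73 (SE 0.24), crc, the fly ATF4, by 0.88 (SE 0.16) and kay, the fly Fos, by 0.92 (SE 0.17). Ets21C overlaps nAChRbeta3 on the other strand and may share reads with it. The primary cells alone were dissociated and sorted, and the part of that handling was not tested.

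Of 24 autophagy and lysosome genes tested, 12 rose and 2 fell, beside 22.4% and 23.2% of all genes. Their regulator Mitf went from 47.4, 41 and 47.5 CPM to 106, 75.6 and 101 CPM (1.06, SE 0.16). The membrane protein Atg9 rose from 24.2, 23.8 and 22.4 CPM to 53.2, 53.2 and 50.5 CPM (1.16, SE 0.12), Atg17 by 1.05 (SE 0.16) and Atg6 by 0.79 (SE 0.14). The groups did not overlap in any of these 4 genes, which were named for their low p. Over the whole list, 13 of the 24 had no overlap with T0 higher, beside 27.4% of all genes. Atg3, a conjugating enzyme, fell by 0.55 (SE 0.12).

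Genes of lipid storage and synthesis also rose, 7 of 13 tested with 1 that fell, beside 22.4% and 23.2% of all genes. The sterol sensor HLH106, now named SREBP, went from 353, 318 and 320 CPM to 883, 605 and 521 CPM (1.02, SE 0.18, and 0.77 without T0 replicate 2). The triglyceride lipase bmm rose from 40.5, 26.6 and 31.6 CPM to 65.8, 80.7 and 66.7 CPM (1.11, SE 0.16). The fatty acid synthase v(2)k05816, now FASN2, rose by 2.66 (SE 0.32), while the main synthase CG3523, now FASN1, was at 604, 402 and 587 CPM and then at 522, 816 and 820 CPM without a call (0.44, SE 0.23). Of 24 redox genes tested, 11 rose and 3 fell, 45.8% and 12.5% beside 22.4% and 23.2% of all genes. Without T0 replicate 2 it was 6 and 2. The iron storage subunit Fer1HCH was at 266, 366 and 395 CPM and then at 1164, 551 and 534 CPM (1.13, SE 0.30, and 0.67 without that library). Gclc, which makes glutathione, rose by 1.27 (SE 0.22), and the superoxide dismutase Sod, now Sod1, fell by 0.73 (SE 0.19).

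Of the RHG cell death inducers, which block the inhibitor of apoptosis th, 3 of 4 fell. Their levels were 66.4, 48.5 and 74.5 CPM and then 10.6, 8.61 and 14 CPM for grim (-2.50, SE 0.27). For skl they were 37.3, 21.8 and 38 CPM and then 2.60, 3.30 and 4.12 CPM (-3.26, SE 0.27), and rpr fell by 3.98 (SE 0.47). No T0 library of grim or skl reached the lowest primary library. The remaining RHG gene W, now named hid, was at 1.02, 1.21 and 1.03 CPM and then at 4.08, 1.10 and 2.57 CPM and was not called (1.23, SE 0.62). The caspases differed, with Dcp-1 rising by 0.66 (SE 0.15) and Ice, now Drice, falling by 0.69 (SE 0.20). Of 3 cell death inhibitors tested, 2 rose and 1 fell. Among them Iap2, now Diap2, rose by 0.87 (SE 0.12), while th itself fell by 0.44. The call of th was lost without T0 replicate 2, without primary replicate 1 or 2, and under the replicate block.

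Among actin genes, 10 of 24 fell and 3 rose, 41.7% and 12.5% beside 23.2% and 22.4% of all genes. The bundling protein sn (fascin) fell from 129, 88.9 and 112 CPM to 22.8, 25.6 and 26.2 CPM (-2.14, SE 0.16). The filamin cher rose by 0.97 (SE 0.16) and the formin Fhos by 1.20 (SE 0.28). Of 18 integrin and adhesion genes, 6 rose and 4 fell, 33.3% and 22.2% beside 22.4% and 23.2% of all genes. Called differences ran from -1.23 to 3.26. Among those that fell, shg, the E-cadherin of epithelia and neuroblast niches, did so by 0.69 (SE 0.16) and the integrin linker rhea (talin) by 0.91 (SE 0.23). The apical determinant crb rose from 3.5, 2.98 and 2.53 CPM to 19.7, 10.1 and 14.5 CPM (2.28, SE 0.29). The polarity protein l(2)gl rose by 0.81 (SE 0.15). Mmp2, a matrix protease, rose from 65.5, 56.5 and 71.5 CPM to 137, 171 and 170 CPM (1.30, SE 0.17).

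Basement membrane and blood cell genes rose, with a gradient among the T0 libraries. Of 12 basement membrane genes tested, 8 rose and 1 fell. The matrix protein Ppn (papilin) was at 12.5, 7.74 and 13.2 CPM and then at 271, 178 and 61.2 CPM (3.93, SE 0.45). The collagen IV chain vkg was at 3.87, 4.19 and 4.5 CPM and then at 90.9, 37.2 and 12.6 CPM (3.48, SE 0.55, and 2.57 without T0 replicate 2). The laminin chain wb differed in pattern, at 46.8, 21.7 and 98.9 CPM in T0 (3.32, SE 0.57), since there T0 replicate 4 was the highest. The collagen Mp, of the type XV and XVIII kind, fell from 23.1, 15.2 and 11.1 CPM to 1.70, 0.824 and 0.514 CPM (-4.07, SE 0.45). Of 20 blood cell genes tested, 14 rose and 2 fell. The hemocyte GATA factor srp was at 0, 0.0806 and 0 CPM in primary cells and at 2.49, 2.47 and 1.40 CPM in T0.

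Immune effectors were near 0 in primary cells and low in T0. Of 19 antimicrobial peptide genes 12 passed the filter and 7 rose, with 3 rising without T0 replicate 2 and 4 without primary replicate 1 or 2. Of the 19, 1 reached a mean of 1 CPM in primary cells and 8 did in T0. Most of the 12 thus passed through allograft libraries, and a rise among them is partly set by the filter. DptB, which encodes a diptericin, was at 0, 0.0806 and 0 CPM and then at 10.3, 1.92 and 0.661 CPM, and AttC, an attacin, at 0, 0.242 and 0.281 CPM and then at 15.3, 3.57 and 1.10 CPM. The neighbouring copies Dpt and DptB, and likewise the attacin genes, resemble each other and may share reads. Drs, the antifungal drosomycin, was not called, at 0.438, 0.484 and 0.188 CPM and then 1.70, 0.366 and 0.514 CPM. Of 26 Turandots, Bomanins and thioester proteins 11 passed the filter and 9 rose, and without T0 replicate 2 it was 7. The filter acted likewise here, with 2 of the 26 at a mean of 1 CPM or more in primary cells and 11 in T0. The stress-induced secreted peptide TotA was at 0.438, 0.968 and 1.31 CPM and then at 15.2, 11.4 and 12.3 CPM (3.85, SE 0.59). In the Imd pathway 8 of 15 tested rose, or 5 without T0 replicate 2, including the NF-kappaB factor Rel by 0.71 (SE 0.14) and the kinase ird5, now IKKbeta, from 12.8, 15.5 and 15.1 CPM to 30.8, 32.2 and 33.7 CPM (1.16, SE 0.15). In the Toll list 6 of 14 tested rose and 1 fell, 42.9% and 7.14% beside 22.4% and 23.2% of all genes. The one that fell was the receptor Tl itself, from 37.3, 20.8 and 22.1 CPM to 4.98, 1.28 and 2.79 CPM (-3.17, SE 0.41). Its adaptor Myd88 rose by 0.77 (SE 0.12).

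Markers of host tissues were summed as well. Some, such as He, also belong to the blood cell list above, so the marker sums are not an independent set of values. The summed level of 7 hemocyte markers was 43.9 to 53.2 CPM in primary cells and 204, 118 and 95.1 CPM in T0, and 4 of the 6 tested rose, while He had 0 counts in primary cells. For 8 fat body markers it was 20.1 to 21.9 CPM and then 250, 133 and 104 CPM, with 4 of the 5 tested rising and with 0 primary counts for takeout (symbol to) and Lsp2. In a longer list of fat body and yolk genes, 5 of 10 tested rose and 1 fell, with a median of 0.27. The 6 gut markers summed to 0 to 0.403 CPM and then to 30.8, 3.94 and 2.35 CPM, and the 6 ovary markers to 0.403 to 0.844 CPM and then to 39.3, 4.49 and 2.65 CPM. In both lists no marker reached a mean of 1 CPM in primary cells. The 1 member of each that passed the filter did so through allograft libraries and was called higher. The eggshell gene Vm26Aa was at 0 in T0. Muscle markers summed to 13.5 to 23.4 CPM and then to 4.58 to 11.5 CPM, and those of the male tract stayed at 0 to 1.03 CPM. T0 replicate 2 was the highest T0 library for hemocyte, fat body, gut, ovary and trachea markers. The part of host tissue in the rises of immune, matrix and yolk genes was not tested.

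**Figure D5:**
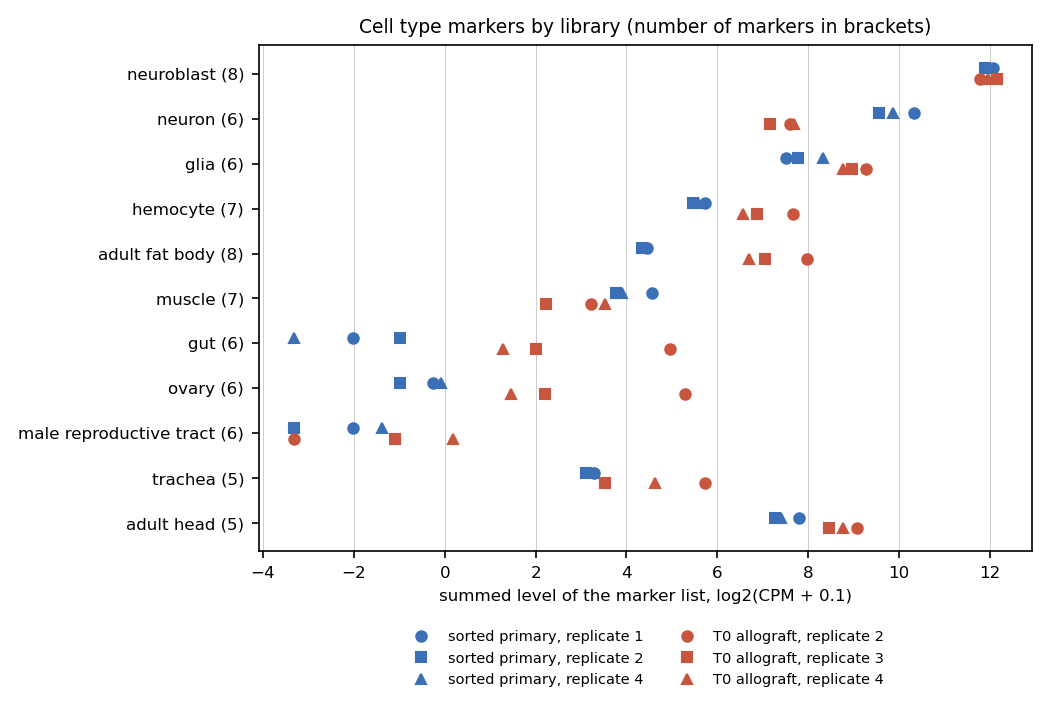
Summed level of each cell type's markers in each library, as log2(CPM + 0.1), with blue symbols for primary and red for T0 replicates and the number of markers in brackets. Neuroblast sums overlap at 3547 to 4563 CPM, neuron sums fall to 142 to 207 CPM, and hemocyte, fat body, gut and ovary sums are higher in all T0 libraries, most of all in T0 replicate 2 (red circles).

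Glial genes gave no single picture. The 6 glial markers summed to 182 to 321 CPM and then to 438 to 618 CPM, but the rise lay in the glutamate transporter Eaat1 alone, from 158, 182 and 238 CPM to 608, 491 and 428 CPM (1.41, SE 0.23). The glial master regulator repo fell from 6.86, 7.34 and 16.5 CPM to 1.70, 1.56 and 2.13 CPM (-2.49, SE 0.49). The astrocyte gene alrm fell by 3.74 (SE 0.68), and wrapper, another of the markers, had 0 counts in T0. The second glutamate transporter Eaat2 was at 35.6, 24.8 and 19.6 CPM and then at 0.679, 0 and 0.661 CPM (-5.86, SE 0.65). In a longer list of adult head and sensory genes, 2 of 6 tested rose and 3 fell, with a median of -1.01. Of 5 adult head markers, the 2 tested rose. They were the phospholipase norpA, used in adult photoreceptors, by 1.30 (SE 0.21), and Arr2, which overlaps Pex7, by 0.87. The head markers ninaE, Arr1 and trp had 0 counts in primary cells and at most 0.226 CPM in any T0 library.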

How the data were processed

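Polyadenylated RNA of Drosophila DM tumours was sequenced in 9 libraries. Per the submitters' processing notes, reads were handled with HISAT2 2.1.0, bedtools 2.25.0, HTSeq and edgeR on the dm6 build; for the strand setting and annotation release nothing is stated there. The authors deposited raw read counts per gene for 16727 genes, together with log2 fold changes and adjusted p-values of their own comparison. Those log2 values and p-values served only for the overlap of calls. A further 13 columns, of normalized values and means over libraries, were not used.

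Counts were analysed with edgeR 4.0.16 (R 4.3.3): TMM scaling, a filter on low counts (filterByExpr, minimum count 10, leaving 9082 genes), 1 quasi-likelihood fit over all 9 libraries and the contrast of T0 against primary, with Benjamini-Hochberg adjustment over all genes tested. CPM values are counts per 1000000 of the scaled library total, and the precision of low values is set by depths of 9482014 to 14093032 counts. Intervals and floors of 3 counts cover counting error only. Counts were also simulated for 9082 genes, of which 200 were changed, beside 45.6% of genes called in the data. The fit recovered 50 of 50 genes at either 4-fold change, 45 of 50 raised and 38 of 50 lowered 2-fold. It called 10 unchanged genes. With so few genes changed, these rates do not show how the fit performs on a change as broad as that in the data. Recovery was not split by level, so the rates say nothing separate about genes with few counts.

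The labels give each replicate as a pool of larval brains or of host tumours, so p-values reflect how these pools vary. Gene lists, markers and the comparison itself were chosen with earlier results of these data known. Named genes are the 15 highest and 15 lowest log2 fold changes among called genes of at least 5 CPM on average whose groups do not overlap, the 10 largest CPM gains and losses, per list up to 4 called genes in each direction and 2 uncalled ones, ranked by p, and a fixed set of tumour, Notch and immune genes; genes named beyond these are marker list members or were chosen after their values were seen. Symbols are those of the deposited table, and 1662 of 1668 list members were found in it. Alternatives were RLE and upper quartile scaling, 2 other filters, DESeq2 1.42.0, limma-voom 3.58.1, a fit on 6 libraries, a replicate block and leaving out each library.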

Additional observations from a re-analysis of the deposited data

How the results depend on the processing

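Over 14 alternatives the number of genes called higher in T0 ranged from 1745 to 2228 and the number called lower from 1817 to 2266, beside 2037 and 2107, and no scaling moved the median of all genes by over 0.1. DESeq2 called 2066 and 2266, limma-voom 2004 and 2122, a fit on the 6 libraries 1840 and 1969, and leaving out 1 library gave 1745 to 1965 and 1817 to 2020. With the replicate number as a block it was 1898 and 1901; the groups share the numbers 2 and 4, but deviations of same-numbered libraries correlated at -0.0566 and -0.0465, so the numbers gave no evidence of pairing. Of 434 named genes called, 362 were called under all alternatives run for them and 0 changed sign with a call, and 77 of 130 uncalled ones were called under at least 1. Counts of antimicrobial peptides called higher ranged from 1 to 8, of complex I genes called lower from 4 to 16, and of gut genes called higher from 0 to 14, the last without the filter. Depth limits genes under about 1 CPM, of which a library holds few reads.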

Other observations

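Clock genes, in no comparison above, split around the core oscillator. Transcripts of the repressors per and tim fell by 2.02 (SE 0.50) and 1.18 (SE 0.35) on the log2 scale, with per at 7.73, 4.92 and 4.22 CPM in primary replicates 1, 2 and 4 and at 1.58, 0.549 and 1.98 CPM in T0 replicates 2, 3 and 4. The call of tim was lost under 3 of the 14 alternatives. The activator cyc rose from 24.5, 24.7 and 30.4 CPM to 68.0, 47.4 and 54.2 CPM (1.09, SE 0.17) and the repressor cwo by 0.73 (SE 0.17). The groups did not overlap in per, cyc or cwo. The sex-specific transcription factor gene fru rose from 213, 193 and 218 CPM to 531, 488 and 496 CPM (1.28, SE 0.14). The dosage compensation RNA roX1 was at 919, 1019 and 1002 CPM and then at 1307, 1085 and 1159 CPM and was not called (0.27, SE 0.19).

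By kind of gene, 128 of 413 noncoding RNAs tested were called higher and 57 lower, beside 1876 and 2022 of 8503 protein-coding genes. By chromosome arm, leaving out Y with 1 gene tested, the share called higher ran from 20.4% on 3R to 24.7% on chromosome 4, and the share called lower from 21% on 2R to 25.8% on chromosome 4.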
